A study of Homo sapiens with 8 samples.

Results

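The genes described here copy the genome and divide the cell. They are 36 named genes of DNA replication and mitosis, chosen as the array probes whose platform symbol is on that list, with the brightest probe standing for each gene. All 36 had a named probe, 53 probes in total. A probe was measurable where it exceeded the background level of 114.37 intensity units on both arrays of at least 1 group, which left 35 members among 12385 genes tested. The exception was CCNE2, a cyclin that activates CDK2 at the start of S phase, whose probe (ILMN_1651260) lay above that level on 1 of 8 arrays, with intensities between 101.6 and 115.1. The probes of CDC6 and MYBL2 were above it on 7 arrays each and those of the other 33 members on all 8.

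The cells were SUM159 trailblazer cells, the cells of a human breast cancer line that lead collective invasion. All of them carried a doxycycline-inducible pLIX lentiviral vector and were harvested at day 5. Induced ΔNp63α cells had the vector for ΔNp63α-V5, a tagged and N-terminally truncated p63, and 1 ug/ml doxycycline. Uninduced ΔNp63α cells had the same vector and no doxycycline. The remaining cells had the empty vector (WT in the titles), with 1 ug/ml doxycycline or without it. Each of the 4 groups had 2 single-colour Illumina arrays. Nothing in the labels says whether the arrays of a group are separate cultures. The p-values therefore reflect only the spread between these arrays, which may be technical. Whether a line was 1 clone or a mixed population is not given in the sources used here, and with 0 probes named TP63 the induction itself was not checked.

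Replication starts at origins where CDC6 and other loaders place the MCM2 to MCM7 ring, the core of the replicative helicase. CDC45 activates that ring, MCM10 helps it to start, and PCNA is the sliding clamp that holds the polymerases on DNA. Cyclins with their kinases then drive the cell into mitosis, where Aurora and Polo-like kinases and kinesin motors build the spindle and the anaphase-promoting complex ends the phase. E2F factors are known to switch on the replication genes late in G1. Mitotic genes come on later in the cycle and are known targets of the DREAM complex and, separately, of FOXM1 and MYBL2.

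Before the comparisons, 1 array needs to be named. Replicate 2 of the empty-vector cells with doxycycline read higher than replicate 1 for 32 of the 35 members, against 51.4% of all genes tested, and it was the highest of the 8 arrays for 26 members, against 15.9% of all genes. Its median deviation from each gene's mean over the 8 arrays was 0.32 over the members on the log2 scale, and the other 7 arrays lay between -0.22 and 0.07. All genes tested had medians between -0.01 and 0.01 on every array, and the share of probes above background was 48.01% to 48.06%. The deposited arrays have equal distributions, which fixes those shares and holds those medians near 0. Neither value can therefore show whether replicate 2 was otherwise like the other arrays. No label marks this array, and the counts over the members and lists, the medians and the members called are also given without it. The cells had all 10 listed mesenchymal markers above background, VIM among them. Of the other lists, 5 of 11 luminal, 5 of 8 blood and 0 of 5 endothelial markers were measurable, and ESR1, PTPRC and PECAM1 were not.

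**Figure D1:**
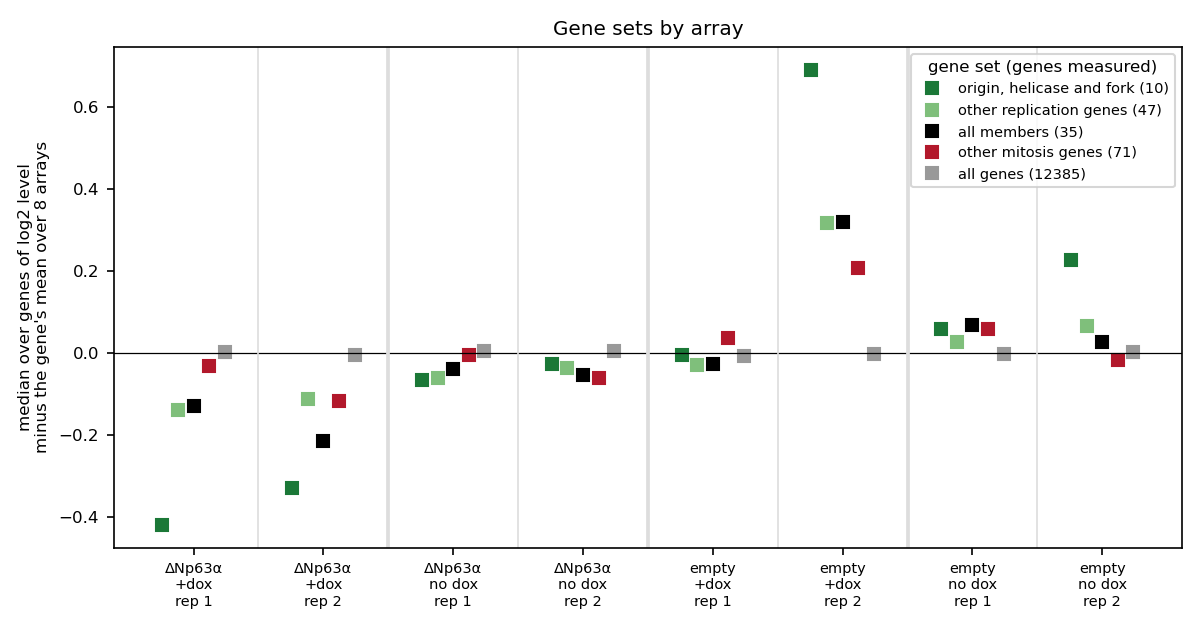
Median deviation by array. Each square is the median, over the genes of a set, of the log2 level minus the gene's own mean over the 8 arrays, with 2 arrays per group along the horizontal axis. The helicase and fork genes sit lowest in both induced ΔNp63α arrays (-0.42 and -0.33) and highest in replicate 2 of the empty-vector cells with doxycycline (0.69). All genes together stay within 0.01 of 0, where the equal distributions of the deposited arrays hold them.

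The vector lines were first compared with doxycycline present in both. This sets cells that received ΔNp63α and drug against cells that received the drug alone. The groups also differ in line, so line and induction cannot be told apart here, and fell or rose means only lower or higher. With all 8 arrays, the thymidylate synthase gene TYMS and the helicase genes MCM3 and MCM6 were more than 2-fold lower in induced ΔNp63α cells. Without replicate 2 of the empty-vector cells with doxycycline they read -0.87, -0.99 and -0.73, each less than 2-fold. Between the uninduced lines TYMS differed by -0.65, MCM3 by -0.31 and MCM6 by -0.23, and with induction by -0.27, -0.61 and -0.50. With doxycycline in both lines CDC45, MCM4, MCM5, KIF11 and CENPA were lower by less than 2-fold. In all, 8 of 35 members fell and 0 rose (limma with Benjamini-Hochberg adjustment over all genes), or 22.9%, where 5.1% of all genes tested were called lower, 4.64% higher and 9.75% in either direction. Without replicate 2 of the empty-vector cells with doxycycline 3 of these falls were called, those of TYMS, MCM3 and MCM6. Of the members 31 were below 0, beside 49.6% of all genes, and 24 without that array, beside 49.1%. At an unadjusted p under 0.05, 16 were lower and 1 higher, beside 11.7% and 12% of all genes and 23.7% in all. Without that array 8 were lower and 2 higher, beside 8.7% and 8.94%. The median log2 difference was -0.27 over the members, -0.10 without that array, and 0.00 over all genes. The arrays of the groups did not overlap for 19 members that were lower and 3 that were higher in induced ΔNp63α cells, beside 25.4% and 26.9% of all genes. Against replicate 1 of the empty-vector cells with doxycycline alone, both induced arrays were lower for 19 members and higher for 7, beside 35.9% and 38.3%. Of the 10 mesenchymal markers 6 fell and 0 rose in the same comparison, 3 fell without that array, and whether they and the members move for 1 reason was not tested. In bulk RNA, fewer cells in S phase and less RNA per cell cannot be told apart.

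The helicase ring held 4 of the 8 falls. MCM3 (probe ILMN_2224143) had log2 intensities of 10.22 and 9.90 in induced ΔNp63α cells, 10.85 and 10.48 in uninduced ΔNp63α cells, 11.05 and 11.60 in empty-vector cells with doxycycline, and 10.96 and 11 in empty-vector cells without it. Both induced arrays were below all the others, and with doxycycline in both lines the difference was -1.27 ± 0.18 (SE, n = 2 arrays per group, limma adjusted p = 0.00158), a 2.41-fold lower level. MCM6 (ILMN_1798654) read 9.20 and 9.27 in induced ΔNp63α cells, 9.77 and 9.70 in uninduced ΔNp63α cells, 9.97 and 10.72 in empty-vector cells with doxycycline, and 10.02 and 9.91 in empty-vector cells without it. It differed by -1.11 ± 0.19, 2.16-fold lower (limma adjusted p = 0.00423), again with both induced arrays lowest of all 8.

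MCM4 (ILMN_1737205) read 8.52 and 8.57 in induced ΔNp63α cells, 8.87 and 8.83 in uninduced ΔNp63α cells, 9.05 and 9.69 in empty-vector cells with doxycycline, and 8.87 and 9.18 in empty-vector cells without it. MCM5 (ILMN_1815169) had 7.53 and 7.87 in induced ΔNp63α cells, 7.93 and 8.11 in uninduced ΔNp63α cells, 8.14 and 8.97 in empty-vector cells with doxycycline, and 7.93 and 8.37 in empty-vector cells without it. Both induced arrays were lowest for both genes, by little in the case of MCM5, and the empty-vector cells with doxycycline spread widely (SD 0.46 and 0.59, n = 2). The log2 differences with doxycycline in both lines were -0.83 ± 0.18 for MCM4 and -0.85 ± 0.23 for MCM5 (limma adjusted p = 0.014 and 0.0397). The remaining ring subunits, read by their brightest probes, did not pass in this fit. MCM7 (ILMN_1663195) read 11.30 and 11.35 in induced ΔNp63α cells, 11.31 and 11.35 in uninduced ΔNp63α cells, 11.59 and 12.63 in empty-vector cells with doxycycline, and 11.74 and 11.90 in empty-vector cells without it. MCM2 (ILMN_1681503) read 7.72 and 7.77 in induced ΔNp63α cells, 8.24 and 8.27 in uninduced ΔNp63α cells, 7.91 and 8.77 in empty-vector cells with doxycycline, and 8.01 and 8.35 in empty-vector cells without it. Their differences were -0.78 (95% interval -1.31 to -0.26) for MCM7 and -0.59 (-1.06 to -0.12) for MCM2, and for both genes the induced arrays were below both empty-vector arrays with doxycycline. For MCM7 the uninduced ΔNp63α arrays were as low as the induced ones, whereas for MCM2 they were not. A dimmer measurable MCM7 probe read -0.93 with doxycycline in both lines. MCM7 passed with the mean of its measurable probes and with the most variable of them.

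CDC45 (ILMN_1670238), the helicase activator, read 9.54 and 9.70 in induced ΔNp63α cells, 9.48 and 10.21 in uninduced ΔNp63α cells, 10.43 and 10.71 in empty-vector cells with doxycycline, and 10.61 and 10.52 in empty-vector cells without it. All 4 arrays of the ΔNp63α line were below all 4 empty-vector arrays, and the uninduced pair was far apart. Its difference with doxycycline in both lines was -0.95 ± 0.19 (limma adjusted p = 0.0116). PCNA (ILMN_1694177) had 9.0 and 9.17 in induced ΔNp63α cells, 9.53 and 9.49 in uninduced ΔNp63α cells, 9.19 and 9.89 in empty-vector cells with doxycycline, and 9.66 and 9.33 in empty-vector cells without it. Its induced arrays were the lowest, although replicate 1 of the empty-vector cells with doxycycline lay only just above them, and the difference of -0.45 did not pass (95% interval -0.87 to -0.03). A dimmer PCNA probe read 0.10 for the same difference. MCM10 read -0.41 and CDC6 -0.08, with overlapping arrays. All 10 origin, helicase and fork members lay below 0, with 5 past the threshold and a median of -0.81. Leaving out the array that stood apart, 8 of the 10 were below 0, 2 passed and the median was -0.35.

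**Figure D2:**
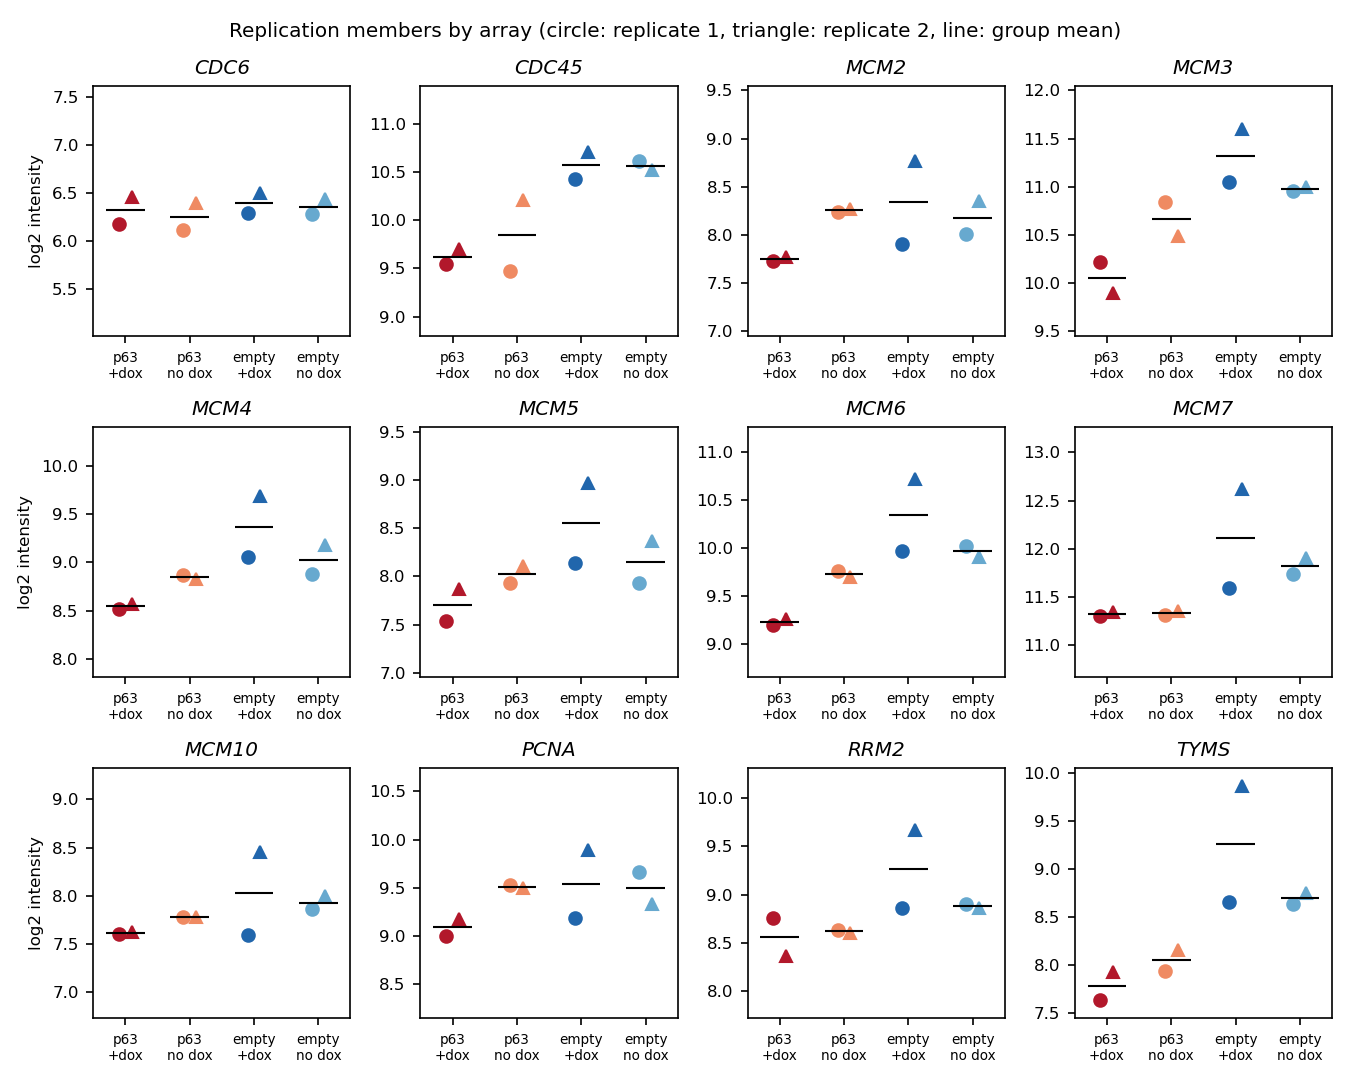
Log2 intensity of the 12 members that act in replication and nucleotide supply, by array. Each panel spans the same number of log2 units, the groups run along the horizontal axis, circles and triangles are replicates 1 and 2, and lines are group means. Both induced ΔNp63α arrays lie below the other 6 for MCM2, MCM3, MCM4, MCM5, MCM6, PCNA and TYMS, and replicate 2 of the empty-vector cells with doxycycline is the highest array for all 12.

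Of the 2 members that supply nucleotides, TYMS fell. TYMS (ILMN_1806040), which makes thymidylate for DNA, read 7.64 and 7.93 in induced ΔNp63α cells, 7.94 and 8.16 in uninduced ΔNp63α cells, 8.65 and 9.86 in empty-vector cells with doxycycline, and 8.64 and 8.75 in empty-vector cells without it. The ΔNp63α arrays with and without doxycycline all lay below the 4 empty-vector arrays. The difference with doxycycline in both lines was -1.48 ± 0.28, 2.78-fold lower (limma adjusted p = 0.00843). RRM2 (ILMN_1678669), the regulated subunit of ribonucleotide reductase, read 8.75 and 8.36 in induced ΔNp63α cells, 8.64 and 8.60 in uninduced ΔNp63α cells, 8.86 and 9.67 in empty-vector cells with doxycycline, and 8.90 and 8.86 in empty-vector cells without it. Its 4 ΔNp63α arrays were below all 4 empty-vector arrays, and its difference of -0.71 did not pass (limma adjusted p = 0.0561, 95% interval -1.17 to -0.25).

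Among mitotic members, KIF11 and CENPA fell. KIF11 (ILMN_1794539), the kinesin that pushes spindle poles apart, read 7.86 and 7.84 in induced ΔNp63α cells, 8.36 and 7.86 in uninduced ΔNp63α cells, 8.35 and 8.70 in empty-vector cells with doxycycline, and 8.22 and 8.16 in empty-vector cells without it. Its induced arrays lay below all 4 empty-vector arrays and level with 1 uninduced array. With doxycycline in both lines the difference was -0.68 ± 0.16 (limma adjusted p = 0.0211). CENPA (ILMN_1801257), the histone variant that marks centromeres, read 8.75 and 8.56 in induced ΔNp63α cells, 8.69 and 8.66 in uninduced ΔNp63α cells, 9.06 and 9.18 in empty-vector cells with doxycycline, and 9.12 and 8.84 in empty-vector cells without it. The 4 ΔNp63α arrays were below all 4 empty-vector arrays, and the pairs of the ΔNp63α line overlapped. It differed by -0.46 ± 0.12 (limma adjusted p = 0.0328). Second probes read less for both, at -0.35 for KIF11 and -0.34 for CENPA. A second MCM3 probe read -0.97 and a second MCM4 probe -0.57.

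The promoters of the members that fell are shown because E2F and DREAM are known to act through short words near the start of such genes. Sequences are from RefSeq on GRCh38.p14 and were listed for 28 of the 36 members. Each runs 5′ to 3′ along its gene from 250 bases before the start to 50 after it. The 5 printed are members that fell and have 1 listed start. Capitals mark TTCCCGC or TTGGCGC (E2F-like words), CCAAT (the NF-Y box) and TTTGAA (the cell cycle genes homology region of DREAM targets), on either strand. No capital words overlap (0 pairs).
TYMS (chr18:657403-657702, plus strand): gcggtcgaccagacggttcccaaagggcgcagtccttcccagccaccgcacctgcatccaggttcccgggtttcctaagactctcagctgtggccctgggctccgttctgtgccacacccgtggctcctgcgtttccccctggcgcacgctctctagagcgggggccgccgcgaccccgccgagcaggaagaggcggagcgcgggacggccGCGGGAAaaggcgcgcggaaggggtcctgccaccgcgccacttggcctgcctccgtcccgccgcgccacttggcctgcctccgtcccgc
MCM3 (chr6:52284693-52284992, minus strand): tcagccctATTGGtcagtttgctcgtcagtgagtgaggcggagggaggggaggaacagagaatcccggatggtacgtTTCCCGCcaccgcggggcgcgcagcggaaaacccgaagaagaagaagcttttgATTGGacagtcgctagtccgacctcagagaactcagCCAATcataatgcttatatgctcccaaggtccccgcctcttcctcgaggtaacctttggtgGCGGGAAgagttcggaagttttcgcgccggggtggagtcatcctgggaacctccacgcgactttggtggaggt
MCM6 (chr2:135876394-135876693, minus strand): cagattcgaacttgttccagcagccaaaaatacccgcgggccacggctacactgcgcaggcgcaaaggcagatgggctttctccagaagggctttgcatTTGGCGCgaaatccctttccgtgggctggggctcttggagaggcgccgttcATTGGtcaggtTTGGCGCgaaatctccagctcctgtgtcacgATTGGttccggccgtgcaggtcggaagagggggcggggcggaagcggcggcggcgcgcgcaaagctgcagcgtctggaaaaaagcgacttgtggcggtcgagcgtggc
KIF11 (chr10:92592880-92593179, plus strand): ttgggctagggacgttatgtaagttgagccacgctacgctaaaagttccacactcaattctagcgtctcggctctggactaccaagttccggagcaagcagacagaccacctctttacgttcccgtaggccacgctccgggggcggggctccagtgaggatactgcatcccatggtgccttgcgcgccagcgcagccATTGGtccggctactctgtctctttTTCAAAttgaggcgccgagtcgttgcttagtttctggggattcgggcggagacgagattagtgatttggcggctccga
CENPA (chr2:26785806-26786105, plus strand): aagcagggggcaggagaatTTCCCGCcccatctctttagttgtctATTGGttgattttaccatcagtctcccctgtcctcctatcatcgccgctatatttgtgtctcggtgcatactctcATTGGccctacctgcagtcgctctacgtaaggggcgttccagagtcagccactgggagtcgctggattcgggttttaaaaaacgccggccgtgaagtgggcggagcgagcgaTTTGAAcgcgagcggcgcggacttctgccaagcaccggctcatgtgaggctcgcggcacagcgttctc

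In these windows TYMS held 1 E2F-like word, read on the opposite strand from -39 to -33 relative to the start, and MCM3 and MCM6 held 2 E2F-like words each. KIF11 held TTTGAA on the opposite strand from -28 to -23, and CENPA held it on its own strand from -18 to -13. An E2F-like word stood in a window of 4 of 6 listed members that fell and of 7 of 22 that did not pass, beside 11% of the 27305 genes in the table. A gene with several listed starts, such as CDC45, counted if any of its windows held the word. TTTGAA stood in 2 of 6 and in 8 of 22, beside 18.2% of all genes, and CCAAT in 5 of 6 and 18 of 22, beside 39.7%. A match is a word in a window and not a measured binding site.

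The remaining mitotic members stood close to 0 or did not pass. TOP2A (ILMN_1686097), which untangles DNA, read 10.80 and 10.40 in induced ΔNp63α cells, 10.64 and 10.60 in uninduced ΔNp63α cells, 10.74 and 10.93 in empty-vector cells with doxycycline, and 11 and 10.46 in empty-vector cells without it. MKI67 (ILMN_1734827), the Ki-67 proliferation marker, read 6.65 and 6.30 in induced ΔNp63α cells, 6.63 and 6.54 in uninduced ΔNp63α cells, 6.54 and 6.66 in empty-vector cells with doxycycline, and 6.73 and 6.64 in empty-vector cells without it. The arrays overlapped for both, with differences of -0.23 (95% interval -0.61 to 0.15) for TOP2A and -0.12 (-0.39 to 0.15) for MKI67. The MKI67 probe was dim, with intensities of 123.6 to 150.6, so its differences may be understated. AURKA (ILMN_1680955), a kinase of the spindle poles, read 10.47 and 10.30 in induced ΔNp63α cells, 10.30 and 10.33 in uninduced ΔNp63α cells, 10.30 and 10.54 in empty-vector cells with doxycycline, and 10.36 and 10.34 in empty-vector cells without it. CDC20 (ILMN_1663390), the activator of the anaphase-promoting complex, had 12.15 and 12.28 in induced ΔNp63α cells, 12.18 and 12.33 in uninduced ΔNp63α cells, 12.28 and 12.53 in empty-vector cells with doxycycline, and 12.31 and 12.16 in empty-vector cells without it. The AURKA arrays overlapped and those of CDC20 all but touched. AURKA differed by -0.03 (-0.28 to 0.22) and CDC20 by -0.20 (-0.46 to 0.07). PLK1 (ILMN_1736176), the Polo-like kinase, read 7.46 and 7.57 in induced ΔNp63α cells, 7.25 and 7.40 in uninduced ΔNp63α cells, 7.35 and 7.74 in empty-vector cells with doxycycline, and 7.35 and 7.54 in empty-vector cells without it. Its arrays overlapped, at a difference of -0.03. BIRC5 (ILMN_2349459), survivin, read 10.01 and 10.06 in induced ΔNp63α cells, 10.34 and 10.30 in uninduced ΔNp63α cells, 10.16 and 10.33 in empty-vector cells with doxycycline, and 10.38 and 10.28 in empty-vector cells without it. Its induced arrays were the lowest of the 8, at a difference of -0.21 that did not pass. UBE2C (ILMN_2301083), the ubiquitin-conjugating partner of the complex, read 11.07 and 11.10 in induced ΔNp63α cells, 11.22 and 11.15 in uninduced ΔNp63α cells, 11.08 and 10.91 in empty-vector cells with doxycycline, and 10.98 and 10.87 in empty-vector cells without it, with overlapping arrays and a difference of 0.09.

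BUB1 ran the other way. This checkpoint kinase (ILMN_2202948) read 8.31 and 8.38 in induced ΔNp63α cells, 8.13 and 8.23 in uninduced ΔNp63α cells, 8.0 and 7.99 in empty-vector cells with doxycycline, and 8.17 and 7.95 in empty-vector cells without it. Both induced arrays were the highest of the 8, and the difference of 0.35 ± 0.11 did not pass (limma adjusted p = 0.0693). BUB1B, its paralog in the checkpoint, read -0.44, AURKB -0.44, TPX2 -0.41, NUSAP1 -0.27 and KIF20A -0.25, all below 0 without passing.

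Of the 6 measured cyclins and CDK partners, 0 passed in limma and 1 had an unadjusted p under 0.05. That gene was CDK1, the mitotic kinase, at -0.47 (limma adjusted p = 0.0877). CCNE1 (ILMN_2374425), which activates CDK2 at the start of S phase, read 6.60 and 6.68 in induced ΔNp63α cells, 6.63 and 6.59 in uninduced ΔNp63α cells, 6.31 and 6.58 in empty-vector cells with doxycycline, and 6.36 and 6.42 in empty-vector cells without it. CCNB2 (ILMN_1801939), a mitotic cyclin, read 10.52 and 10.58 in induced ΔNp63α cells, 10.78 and 10.49 in uninduced ΔNp63α cells, 10.50 and 10.89 in empty-vector cells with doxycycline, and 10.91 and 10.78 in empty-vector cells without it. CCNE1 arrays were higher in induced ΔNp63α cells by 0.20, CCNB2 overlapped at -0.15, and neither passed. The CCNE1 probe was also dim, with intensities of 123.7 to 147.3, so its differences may be understated. CCNA2 read -0.22, CCNB1 -0.05 and the phosphatase CDC25A -0.07. FOXM1 (ILMN_2344971), the transcription factor of mitotic genes, read 8.18 and 8.07 in induced ΔNp63α cells, 8.13 and 7.98 in uninduced ΔNp63α cells, 8.14 and 8.34 in empty-vector cells with doxycycline, and 8.26 and 8.12 in empty-vector cells without it. Its arrays overlapped between these groups. It differed by -0.11 (95% interval -0.36 to 0.14) and MYBL2 by 0.04, with 0 of the 2 factors past the threshold and 0 with an unadjusted p under 0.05.

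**Figure D3:**
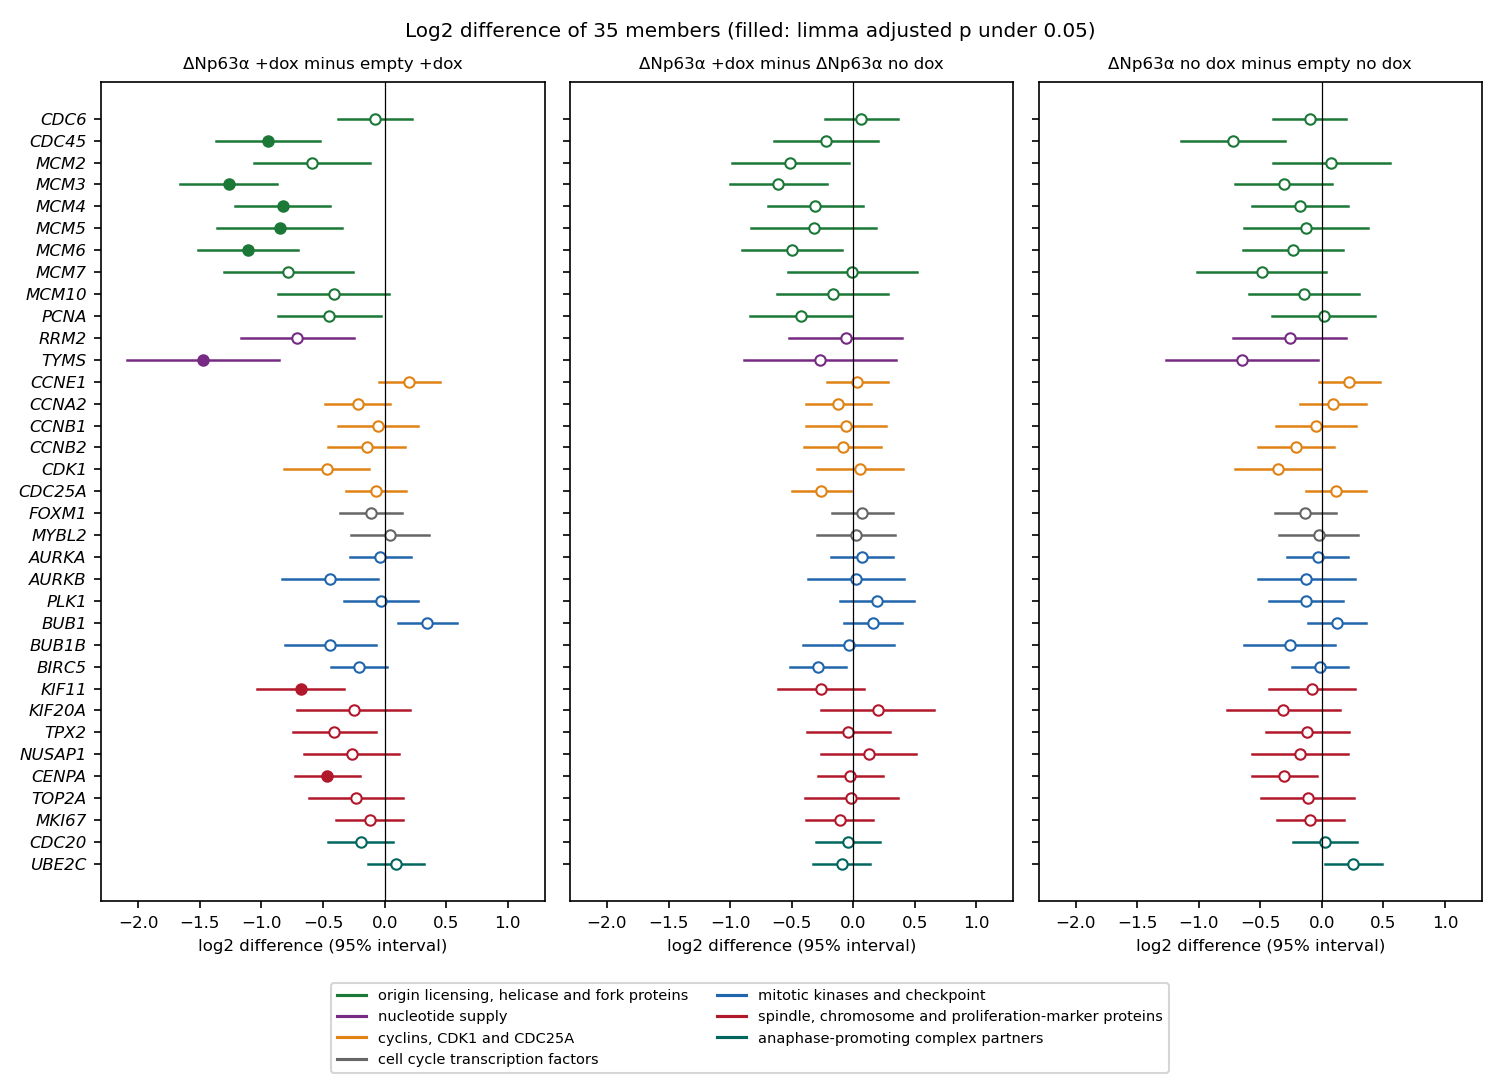
Log2 differences of the 35 members with 95% intervals from limma, coloured by role. The left panel sets induced ΔNp63α cells against empty-vector cells with doxycycline, the middle panel against uninduced ΔNp63α cells, and the right panel sets uninduced ΔNp63α cells against untreated empty-vector cells. Filled points passed an adjusted p of 0.05: 8 on the left, 0 in the middle and 0 on the right.

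Leaving out replicate 2 of the empty-vector cells with doxycycline left 3 falls and 0 rises among the 35 members, where 379 genes (3.06%) were called over the whole table and 1.67% were called lower. The lone array of that group is then assumed to vary like the other groups. TYMS read -0.87 (limma adjusted p = 0.0163), MCM3 -0.99 (0.0152) and MCM6 -0.73 (0.0124). CDC45 read -0.80, MCM4 -0.51, KIF11 -0.51, MCM5 -0.44 and CENPA -0.40, and these 5 were no longer called. MCM7 moved to -0.26, MCM2 to -0.16 and PCNA to -0.10, and the median over the members to -0.10. The median over the members was -0.26 without replicate 2 of induced ΔNp63α cells. It was -0.52 without replicate 1 of the empty-vector cells with doxycycline.

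**Figure D4:**
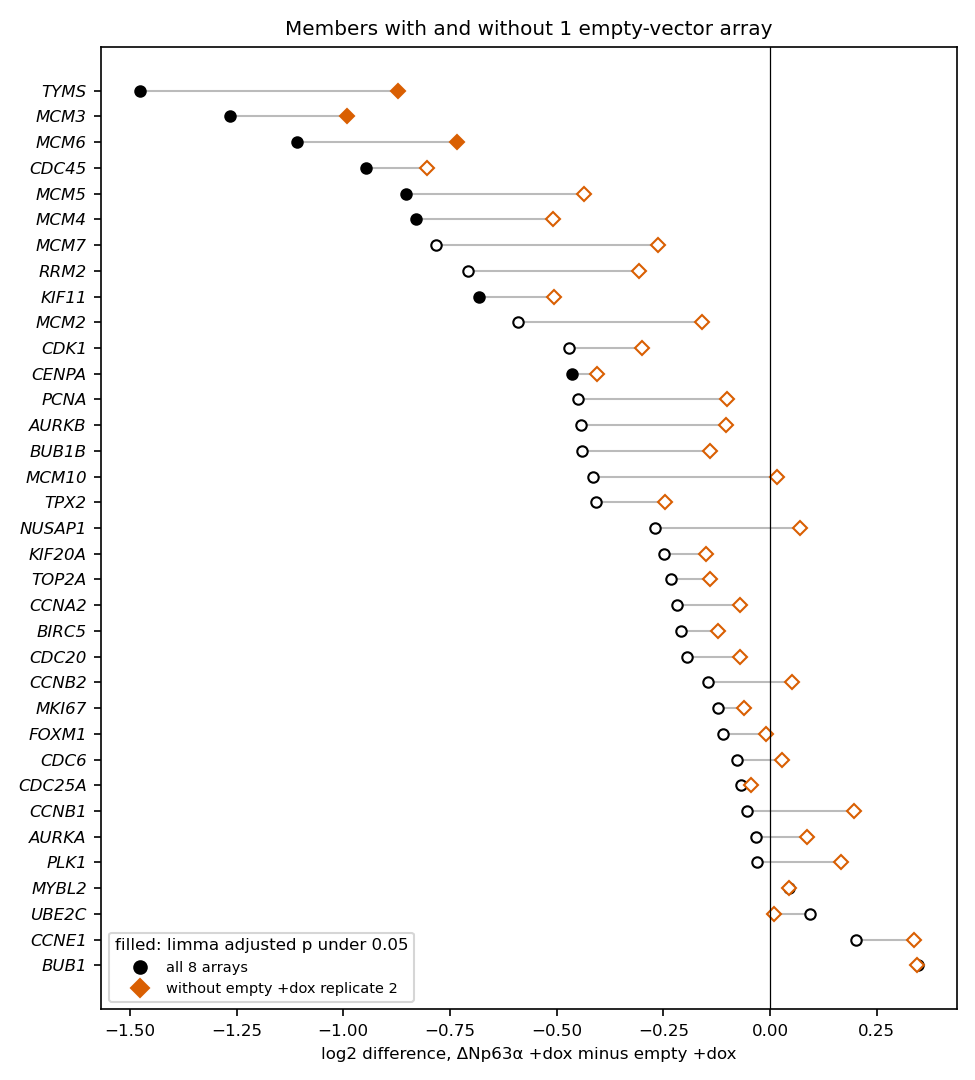
Log2 difference of each member between induced ΔNp63α cells and empty-vector cells with doxycycline, with all 8 arrays (circles) and without replicate 2 of the empty-vector cells with doxycycline (diamonds), sorted by the first value. Filled symbols passed a limma adjusted p of 0.05: 8 circles and 3 diamonds. Most diamonds lie closer to 0, and TYMS, MCM3 and MCM6 stay filled.

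Against all 4 empty-vector arrays together, an alternative added after the values were seen, 7 members fell and 1 rose, beside 13.3% of all genes called and 6.86% called lower. The rise was BUB1 (0.31 ± 0.09, limma adjusted p = 0.0402). Against the 3 empty-vector arrays other than the one that stood apart, 6 fell and 0 rose, beside 10.6% of all genes called and 5.54% called lower. Those were MCM3 (-0.94), TYMS (-0.90), CDC45 (-0.90), MCM6 (-0.73), MCM4 (-0.49) and MCM7 (-0.42).

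Induction was then compared with the same line left uninduced, which keeps the line the same. limma called 0 of 35 members, where 2.73% of all genes were called, 1.43% higher and 1.3% lower. At an unadjusted p under 0.05, 6 members were lower and 0 higher, beside 7% and 6.57% of all genes and 13.6% in either direction. These were MCM3 at -0.61 (95% interval -1.0 to -0.21, limma adjusted p = 0.12), MCM2 at -0.51 (-0.98 to -0.04) and MCM6 at -0.50 (-0.90 to -0.09). The others were PCNA at -0.42, BIRC5 at -0.28 and CDC25A at -0.26. Dimmer measurable probes read 0.20 for PCNA and -0.07 for CDC25A, and -0.34 for MCM3 and -0.30 for BIRC5. MCM6 was called when either empty-vector array with doxycycline was left out, and those arrays enter this comparison only through the shared spread. The median was -0.06 over the members, -0.01 over all genes and -0.31 over the 10 origin, helicase and fork members, 9 of which were below 0. Of the 35 members 24 were below 0, beside 52.2% of all genes.

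Induced arrays lay wholly below uninduced ones for 12 members and above for 2, beside 22.9% and 20.3% of all genes. The 2 were PLK1 (0.20) and BUB1 (0.16). KIF20A (ILMN_1695658), a kinesin of the dividing cell's midzone, had the largest positive difference, at 0.20, from levels of 8.79 and 8.26 in induced ΔNp63α cells, 8.67 and 7.99 in uninduced ΔNp63α cells, 8.68 and 8.88 in empty-vector cells with doxycycline, and 8.71 and 8.57 in empty-vector cells without it. Its replicates were further apart than its groups. MKI67 at -0.11 (-0.38 to 0.16), TOP2A at -0.02 (-0.40 to 0.36) and CCNB1 at -0.06 (-0.39 to 0.26) had intervals that include 0. For MKI67 the dim probe may understate the difference. Over the 35 members the bounds of the 95% intervals ran from -1.0 to 0.66.

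Before induction the ΔNp63α line was compared with the empty-vector line. limma called 0 of 35 members, beside 0.0484% of all genes (6 genes), and 1 member was higher and 4 were lower at an unadjusted p under 0.05, beside 5% and 5.01% of all genes and 10% in all. The lower ones were CDC45 (-0.72, 95% interval -1.15 to -0.30, limma adjusted p = 0.264), TYMS (-0.65, -1.26 to -0.03), CDK1 (-0.35) and CENPA (-0.30). The higher one was UBE2C (0.26). Of the members 27 were below 0, beside 48.2% of all genes, with a median of -0.13 beside 0.01. Arrays did not overlap for 15 members that were lower and 2 that were higher, beside 20.1% and 22.2% of all genes. MCM3 stood at -0.31 and MCM6 at -0.23 in this comparison, and the arrays of the lines did not overlap for either gene. TYMS alone was called with only the 4 arrays compared, and CDC45 alone without replicate 2 of uninduced ΔNp63α cells.

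Doxycycline alone, in the empty-vector line, gave 0 calls in limma among the members and 0% of all genes. There were also 0 members with an unadjusted p under 0.05, beside 2.12% of all genes higher, 2.27% lower and 4.38% in all. Arrays did not overlap for 3 members that were higher and 1 that was lower, beside 16.2% and 18% of all genes, and 7 members were below 0, beside 51.1%. The median over the members was 0.14, beside 0.00 over all genes. Without replicate 2 of the cells with doxycycline the median turned to -0.05, with 24 of 35 members below 0, beside 51.8% of all genes. Then 3 members were lower and 0 higher at an unadjusted p under 0.05, beside 2.38% and 1.92% of all genes, and limma called 0. TYMS read 0.56 with that array and -0.04 without it, MCM5 0.40 and -0.01, and RRM2 0.39 and -0.01. At the other end CCNB2 read -0.15 with that array and -0.35 without it, BIRC5 -0.09 and -0.17, and MKI67 -0.08 and -0.15. Without it the lowest members after CCNB2 were MCM10 (-0.33), PCNA (-0.31) and CCNB1 (-0.30).

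Whether doxycycline acted differently in the ΔNp63α line and the empty-vector line was tested as an interaction. limma called 0 of 35 members, beside 0.727% of all genes, 0.452% higher and 0.275% lower. At an unadjusted p under 0.05, 6 were lower and 0 higher, beside 4.21% and 4.3% of all genes and 8.51% in all. Of the members 27 were below 0, beside 50.8%. MCM3 was at -0.95 ± 0.25 (limma adjusted p = 0.162), MCM6 at -0.87 ± 0.26 (0.251) and TYMS at -0.83 ± 0.40 (0.603). Without replicate 2 of the empty-vector cells with doxycycline, MCM3 read -0.68, MCM6 -0.50 and TYMS -0.22, and 0 members were called, beside 0.347% of all genes. Then 18 of 35 members were below 0, beside 50.3% of all genes, and 2 were lower and 0 higher at an unadjusted p under 0.05, beside 3.67% and 3.84%. Without replicate 1 of those cells 5 were called, all lower (MCM2, MCM3, MCM4, MCM6 and TYMS). These comparisons share groups, so they are not independent of each other.

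Across the 4 groups, the mean was lowest in induced ΔNp63α cells for 23 of 35 members, beside 31.1% of all genes, and lowest in uninduced ΔNp63α cells for 8, beside 20.9%. These counts were 20 and 7 without replicate 2 of the empty-vector cells with doxycycline, beside 29.6% and 19.9%. The mean was highest in empty-vector cells with doxycycline for 26 members, beside 25.5% of all genes, and for 9 without that array, beside 25.5% again. For 14 members, beside 8.79% of all genes, induced ΔNp63α cells were lowest, followed by uninduced ΔNp63α, untreated empty-vector cells, and empty-vector cells with doxycycline. The 8 members that fell with doxycycline in both lines were among them, and the others were MCM7, MCM10, RRM2, BUB1B, TPX2 and TOP2A. Those 8 were called between the lowest and highest groups of this order, so their place in it is no separate result. Without that array 7 members had this order, beside 7.7% of all genes, and the empty-vector groups changed places for CDC45, TYMS and MCM5. No neighbours in that order passed their own test. The median pairwise Pearson correlation between members was 0.54 over the 8 arrays, across 595 pairs that share arrays and groups, and 0.19 without that array.

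Further genes of replication, outside the members, were read in the comparison with doxycycline in both lines. Of 49 listed, 47 were measured, 12 fell and 0 rose, beside 5.1% and 4.64% of all genes, with a median of -0.28. The largest falls were DUT, which removes dUTP, at -0.99 (limma adjusted p = 0.0155), the thymidine kinase TK1 at -0.91 (0.0255), the maintenance methylation factor UHRF1 at -0.90 (0.0282) and the large ribonucleotide reductase subunit RRM1 at -0.85 (0.0123). DNA ligase LIG1 (-0.72), the polymerase subunits POLE2 (-0.71) and POLA1 (-0.62) and the fork protector TIMELESS (-0.60) followed. Without replicate 2 of the empty-vector cells with doxycycline 1 fell, POLA1 at -0.56, beside 1.67% of all genes, and the median was -0.09.

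Of 72 further mitosis genes 71 were measured, 8 fell and 0 rose, beside the same 5.1% and 4.64% of all genes, with a median of -0.21. The centromere genes CENPM (-0.91, limma adjusted p = 0.00744) and CENPU (-0.80, 0.0117) had the largest falls. CEP55 (-0.57), HJURP (-0.57), SMC4 (-0.54), OIP5 (-0.54), NCAPG2 (-0.51) and MELK (-0.40) were the others. Without the same array the median was -0.09, 0 fell and 2 rose in limma, GTSE1 at 0.59 and CCNF at 0.61, beside 1.67% and 1.39% of all genes. At an unadjusted p under 0.05, 11 were then lower and 3 higher, beside 8.7% and 8.94%. With induction in the ΔNp63α line 0 of the 47 replication and 0 of the 71 mitosis genes were called by limma, while 2 and 5 had an unadjusted p under 0.05, which is 4.26% and 7.04% of them beside 13.6% of all genes.

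Among 30 measured G1 regulators, 3 fell and 1 rose with doxycycline in both lines, which is 13.3% beside 9.75% of all genes called. TFDP1, the dimer partner of E2F factors, fell (-0.62, limma adjusted p = 0.0137), as did the pocket protein gene RBL1 (-0.49) and the stress gene GADD45B (-0.83). CDKN2A, the locus of the p16 and ARF cell cycle brakes, rose (0.64, 0.00446). GADD45B was also the 1 gene of this list called with induction (-0.80, 0.0307), where 0 rose, which is 3.33% of the list beside 2.73% of all genes. CDKN1A, the p21 brake, named after its values were seen, read 0.59 with induction and 0.51 with doxycycline in both lines (limma adjusted p = 0.0584 and 0.051). Without the array that stood apart, TFDP1, GADD45B and CDKN2A were still called, at -0.72, -0.95 and 0.67, RBL1 was not, and BTG1 was added at -0.73, beside 3.06% of all genes called. Of 15 measured histone genes H2BC12 rose (0.89) and H2BC5 fell (-0.49), again 13.3% beside 9.75% of all genes. Without that array H2BC12 alone was called (1.03), and these genes have close copies that a probe may not separate. Of 12 measured reference genes such as GAPDH, limma called 0, with 1 at an unadjusted p under 0.05.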

How the data were processed

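Bead array intensity values were deposited by the authors as one processed table of 47304 probes on 8 arrays, on a linear scale with equal distributions between arrays (largest deviation of sorted values 0.175). Their software and normalisation were not given in the sources used here. A second table with 16 columns was not used, because its column names match no sample label. Of the probes, 30105 had 1 gene symbol in the platform annotation, 8 had several and 17191 were unlisted.

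The background level of 114.37 was the mode of the intensities (106.91) plus 1.645 times their spread at or below it (4.535). Intensities were background-corrected (normexp, offset 50) and log2-transformed, which understates differences of dim genes. limma 3.58.1 in R 4.3.3 fitted all 4 groups together, with Benjamini-Hochberg adjustment over 12385 genes and a threshold of 0.05. The median standard error of 0.12 with 2 arrays per group limits precision. The fit was tested on simulated data. Alternatives changed background correction, offset, filter, probe choice, arrays and the replicate block.

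The members and lists were chosen with earlier results of these data known. Values by array are given for members past the threshold, the 3 largest rises and falls in each comparison of 2 groups (not the interaction), the highest-mean member of each role, MKI67, PCNA and TOP2A. Of the other lists, at most 8 genes past the threshold are named in each comparison.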

Additional observations from a re-analysis of the deposited data

How the results depend on the processing

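With doxycycline in both lines, 8 of 35 members were called, and 7 without background correction, 7 at an offset of 16, 8 with no filter, 10 with the mean of the probes, 9 with robust moderation and 6 when limited to the arrays compared. In the same order, the calls over all genes were 1207, 1063, 984, 1212, 1141, 1169 and 718. These were calls among 12385 genes, or 20042 with no filter. MCM3, MCM6 and TYMS were called in all 18 alternatives, CDC45 in 16, MCM4 and KIF11 in 15, CENPA in 13 and MCM5 in 11. Leaving out each array in turn gave 3 to 15 calls and a median between -0.52 and -0.10, and 4 calls without replicate 2 of induced ΔNp63α cells. The median was -0.41 with probes above background on all 8 arrays and also -0.41 with the most variable probe. Leaving out arrays gave 0 to 1 calls with induction, 0 to 5 for the interaction, 0 to 1 for the uninduced lines and a median of -0.0498 to 0.2997 for doxycycline alone. With only the arrays compared, 1 member was called between the uninduced lines, and over all genes 718 against 1207 with doxycycline in both lines, 181 against 338 with induction and 37 against 6 between the uninduced lines. Beyond smaller fits with fewer arrays, the cause was not tested. No call changed sign in any alternative. The comparisons with pooled empty-vector arrays, the list counts without 1 array and the group orders without it were chosen after seeing the data.

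Same-numbered arrays correlated between 0.04 and 0.43 in their deviations from the group means, so the numbers do not establish pairs. With the replicate block, 11 members were called with doxycycline in both lines, MCM2, MCM7 and RRM2 among them, and 0 in each of the other 4 comparisons. Over all genes 1659 were called against 1207 with doxycycline in both lines, and 500 against 338 with induction. The counts were 155 against 90 for the interaction and 27 against 6 between the uninduced lines.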
